A study of Mus musculus with 4 samples.

Results

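Keratin transcripts were measured in ureters of grown male mice. The family was taken as every gene with a probe set whose only annotated symbol is Krt followed by a number and at most 1 letter, and keratin-associated Krtap genes were not included. This gave 48 genes from 61 probe sets, of 18193 named genes and 45037 probe sets on the arrays. The 4 samples form 1 group, adult ureter at Theiler stage 28, from SMGA/EGFP transgenic mice bred from FVB/N females and transgenic males. SMGA is smooth muscle gamma actin, gene symbol Actg2, and the green reporter guided the dissection between kidney and bladder. The reporter follows muscle and not the epithelial lining in which keratins are made, and how much of that lining was taken was not measured. The labels state that samples were not pooled, but not that each came from a separate animal, so p-values measure only the spread between these samples, which may be technical. There is no second group and no contrast between conditions.

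Keratins are the intermediate filament proteins of epithelial cells. A filament is built from pairs of an acidic type I and a basic type II keratin, so a cell needs at least 1 member of each type. Type I genes lie in a cluster on chromosome 11 and type II genes in one on chromosome 15. The exception is Krt18, a type I gene that lies beside Krt8 on chromosome 15. Epithelia differ in the pairs they make, with Krt8 and Krt18 in simple epithelia, Krt5 with Krt14 or Krt15 in basal cells, Krt4 and Krt13 in the upper layers of moist stratified linings, and Krt1 and Krt10 in epidermis. The urothelium that lines the ureter has basal, intermediate and superficial umbrella cells, and Krt20 is a keratin of umbrella cells. Many of the remaining keratins are best known from the hair follicle and hair shaft.

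Of the 48 keratin genes 21 were above background, a share of 43.8%, against 58.1% of all named genes. A level is log2(intensity + 16) of the gene's brightest probe set, and a gene was above background where limma's one-sided test against each array's own threshold had an adjusted p under 0.05 for any of its probe sets. The thresholds came from probe sets of smell and taste receptors and were 7.25, 6.99, 7.56 and 7.36 in replicates 1 to 4. By probe set, 26 of 61 were above background, against 41.3% of all probe sets. Type II keratins passed in 12 of 23 cases and type I in 9 of 25. Without a test, 21 keratins were over the threshold in all 4 samples (43.8%, against 58.4% of all named genes) and 29 in at least 1 (60.4%, against 76.6%). The 19 keratins that stayed under the threshold in every sample (39.6%, against 23.4% of all named genes) had values from 4.15 to 7.40. They included all 8 measured keratins of the hair follicle sheath. With a stricter background, set 3 median absolute deviations over the median of the receptor probe sets, 8 keratins passed (16.7%, against 38.1% of all named genes), namely Krt4, Krt5, Krt7, Krt8, Krt14, Krt15, Krt18 and Krt19.

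Markers of muscle and lining were both present. All 6 smooth muscle genes were above background (100%, against 58.1% of all named genes), with Actg2 at 11.91 ± 0.96 (SD, n = 4). Epcam at 15.56 ± 0.08 and Cdh1 at 15.26 ± 0.22, both general to epithelia, were also above background. Of 4 uroplakin genes, which mark urothelium, 3 passed (75%, against 58.1% of all named genes). Gapdh signal at the 3' end was 34.3, 36.9, 31.6 and 18.8 times that at the 5' end in replicates 1 to 4. For Actb the ratios were 8.23, 19.8, 5.27 and 4.43. Both were highest in replicate 2 and lowest in replicate 4. Probe sets far from the 3' end are therefore limited, and whether these ratios bear on differences between samples was not tested. Markers of other organs were uneven. The 5 skeletal muscle genes were over the threshold in 0, 1, 5 and 1 cases in replicates 1 to 4, with summed intensities of 237, 411, 143913 and 323. The 6 liver genes were over it in 6, 1, 6 and 1 cases, with sums of 46153, 402, 12237 and 485, and the 5 male reproductive tract genes in 5, 5, 2 and 1 cases, with sums of 6958, 66157, 44099 and 652. The 5 lacrimal and salivary gland genes were over it in 1, 3, 3 and 3 cases, with sums of 942, 30160, 135492 and 45576. Liver, glands and reproductive ducts also contain keratin-producing epithelium, and the part of such tissue in the keratin values was not tested. In whole tissue, fewer cells of a type and less RNA per cell cannot be told apart.

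The sequences upstream of 5 keratin genes are shown because Krt18, Krt20, Krt14 and Krt13 had the widest swings between samples in their layers and Krt5 is the steadier partner of Krt14. They are the 250 bases before the annotated start, from RefSeq on build GRCm38.p6, 5' to 3' on the gene's strand. Capitals mark matches to 4 motifs. The TATA box was searched as TATAAA, an AP-1-like pattern as TGANTCA (its central base left free, so looser than the AP-1 consensus) and the AP-2 consensus as GCCNNNGGC, each on both strands in all 250 bases. The shorter ATAAA was searched on the gene's own strand between 45 and 15 bases before the start, and it lies within the TATA box motif where both match.
Krt18, chr15:102027966-102028215, plus strand: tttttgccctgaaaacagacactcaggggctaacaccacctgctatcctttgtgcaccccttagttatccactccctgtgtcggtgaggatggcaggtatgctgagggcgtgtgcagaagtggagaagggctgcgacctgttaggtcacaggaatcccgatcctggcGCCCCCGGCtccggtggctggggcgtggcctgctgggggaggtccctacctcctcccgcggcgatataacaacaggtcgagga
Krt20, chr11:99438154-99438403, minus strand: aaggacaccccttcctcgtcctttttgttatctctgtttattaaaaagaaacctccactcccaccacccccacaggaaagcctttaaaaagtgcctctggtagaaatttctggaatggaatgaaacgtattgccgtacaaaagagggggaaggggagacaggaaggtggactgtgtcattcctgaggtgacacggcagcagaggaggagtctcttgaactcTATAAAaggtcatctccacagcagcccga
Krt14, chr11:100206031-100206280, minus strand: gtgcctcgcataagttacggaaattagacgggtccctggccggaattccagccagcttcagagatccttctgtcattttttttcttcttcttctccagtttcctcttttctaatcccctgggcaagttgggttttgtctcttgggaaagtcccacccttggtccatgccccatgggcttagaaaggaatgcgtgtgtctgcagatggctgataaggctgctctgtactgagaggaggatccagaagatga
Krt13, chr11:100121567-100121816, minus strand: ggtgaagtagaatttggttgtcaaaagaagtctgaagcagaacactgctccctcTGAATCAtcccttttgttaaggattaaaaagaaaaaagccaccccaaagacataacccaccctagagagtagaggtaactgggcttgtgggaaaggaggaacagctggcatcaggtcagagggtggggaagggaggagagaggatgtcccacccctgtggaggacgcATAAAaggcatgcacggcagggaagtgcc
Krt5, chr15:101712906-101713155, minus strand: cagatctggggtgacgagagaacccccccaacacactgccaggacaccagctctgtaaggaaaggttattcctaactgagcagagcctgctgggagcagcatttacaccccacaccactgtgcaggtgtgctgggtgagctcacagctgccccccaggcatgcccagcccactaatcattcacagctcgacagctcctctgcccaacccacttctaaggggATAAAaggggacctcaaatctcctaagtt
Krt20, Krt13 and Krt5 hold the ATAAA match close to the start, at -28, -29 and -29, whereas Krt18 and Krt14 hold none in that window.

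Across the family, 32 of the 48 genes matched a promoter entry, and 19 of these (59.4%) held ATAAA in the window near the start, against 4.83% of all 32851 promoter entries. TATAAA anywhere in the 250 bases was held by 16 of 32 (against 12.4% of all entries). Of the 21 keratins above background 13 matched an entry, and Krt1, Krt4, Krt15 and Krt19 were among those that did not. The counts that follow do not cover these genes. Among matched keratins above background 6 of 13 held the ATAAA match, and among those not above background 13 of 19 did. For TATAAA anywhere in the 250 bases the counts were 2 of 13 and 14 of 19. The AP-1-like pattern was found upstream of 1 keratin, Krt13, at -196 (3.12%, against 6.75% of all entries). The AP-2 consensus was found upstream of 3 (9.38%, against 13.7%), Krt7, Krt18 and Krt42, all above background. A match is a description of the letters and does not show that a factor binds.

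**Figure D1:**
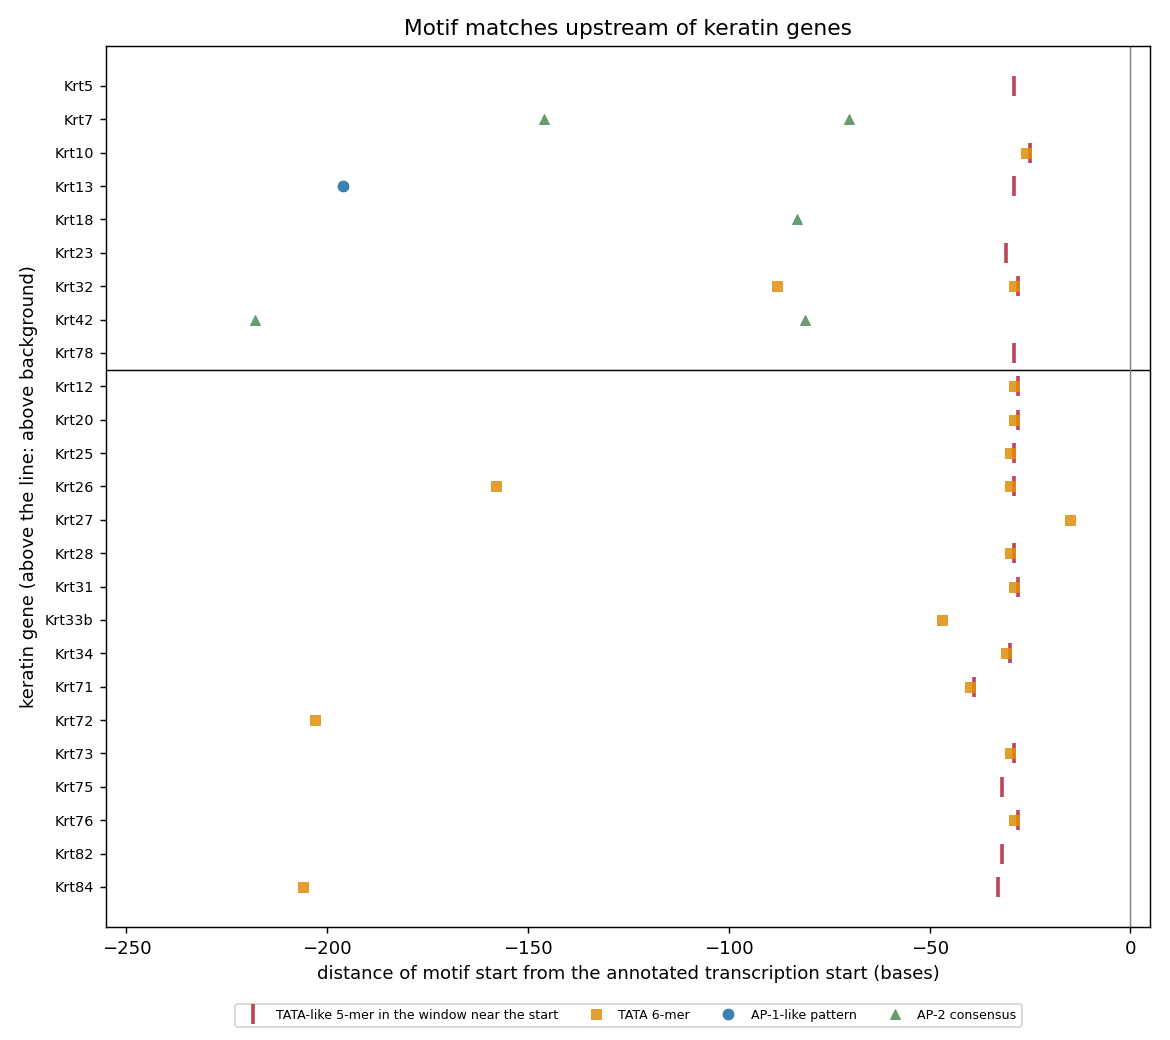
Motif matches in the 250 bases before the annotated start of keratin genes, with the distance of each match from the start in bases on the x axis and 1 gene per row, genes above background over the black line. The 25 of 32 matched genes with at least 1 match are shown, and most of the TATA-like matches stack about 30 bases before the start in genes on both sides of the line.

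Of the 5 keratins of simple epithelia 4 were above background (80%, against 58.1% of all named genes). They were Krt7, Krt8, Krt18 and Krt19, and these were high in every sample. Krt8, the type II keratin of simple epithelia, had 16.19, 15.69, 16.36 and 15.55 in replicates 1 to 4, a mean of 15.95 ± 0.39. Krt7, a type II keratin of ducts and urothelium, had 15.05, 15.02, 15.41 and 14.85, with a mean of 15.08 ± 0.24. Krt19, a type I keratin made in many linings, had 15.92, 15.46, 15.75 and 15.41, with a mean of 15.64 ± 0.24. These 3 genes stayed within a range of 0.51 to 0.81 log2 units over the 4 samples. All had an adjusted p of 1.06e-06 in limma's background test. All 3 probe sets of Krt8 were above background and highest in replicate 3, but each can match several transcripts, as can the single probe set of Krt7.

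Krt18 and Krt20 set replicate 3 apart. Krt18, the type I partner of Krt8, had 14.11, 13.82, 16.003 and 14.60, a mean of 14.63 ± 0.97, with replicate 3 higher than the others' mean by 1.83 log2 units. Krt20 had 7.09, 6.31, 11.69 and 6.07, so it was over its array's threshold in replicate 3 alone, where it exceeded the others' mean by 5.20 log2 units. Because the test asks about the mean over samples, Krt20 at 7.79 ± 2.64 was not above background (adjusted p = 0.604). In replicate 3 Krt7 and Krt8 were also highest, at 0.44 and 0.55 above the others, while Krt19 at 0.16 above turned to -0.09 under quantile normalization. The directions of Krt7, Krt8, Krt18 and Krt20 in replicate 3 held under quantile normalization and both other pseudocounts.

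**Figure D2:**
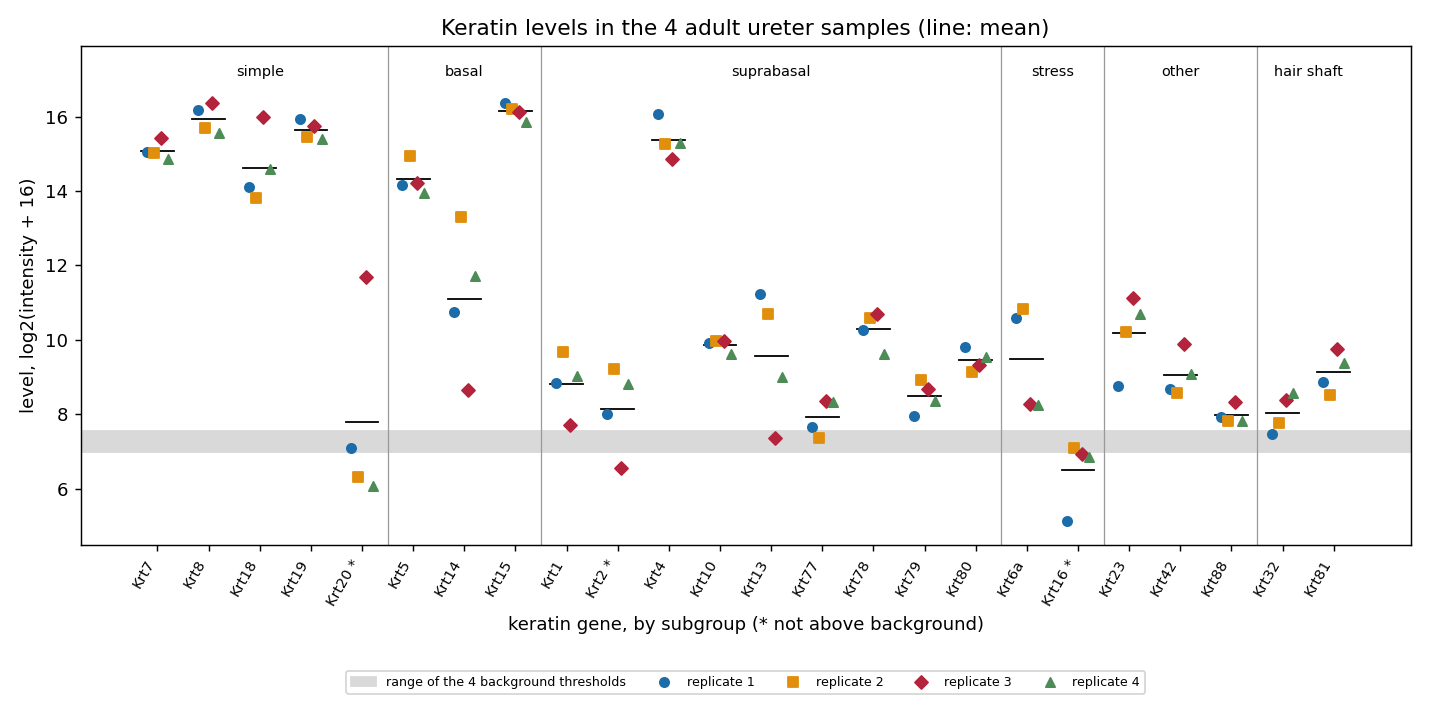
Levels of the 21 keratins above background and of Krt2, Krt16 and Krt20, as log2(intensity + 16) on the y axis, with 1 marker per sample, a line at the mean of 4 and a grey band over the 4 background thresholds. Krt20 is at 11.69 in replicate 3 and at 7.09 or lower in the others, and Krt14 runs from 8.65 in replicate 3 to 13.30 in replicate 2, whereas Krt15 and Krt19 cluster tightly.

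All 3 basal keratins were above background (100%, against 58.1% of all named genes). Krt15, a type I keratin of basal cells, had 16.38, 16.22, 16.12 and 15.85 (mean 16.14 ± 0.22). Krt5, the type II keratin of basal cells, had 14.16, 14.95, 14.21 and 13.93 (mean 14.31 ± 0.44), highest in replicate 2. Both were high in every sample, and replicate 3 lay -0.03 and -0.14 from the mean of the others, by differences smaller than their SD. Under quantile normalization these became -0.37 for Krt15 and -0.13 for Krt5, so that of Krt15 was larger than the SD of its deposited values. Krt14, the other type I partner of Krt5, had 10.74, 13.30, 8.65 and 11.72 (mean 11.10 ± 1.95, adjusted p = 0.00288). It lay 2.93 above the other samples in replicate 2 and at -3.27 relative to the others in replicate 3. The range of Krt14 was 4.65 log2 units, that of Krt5 was 1.01 and that of Krt15 was 0.52. The brightest probe set of Krt14, which gave these values, can match several transcripts. A second probe set of Krt14, not prone to that, gave the same order of samples, with 9.12, 12.39, 7.63 and 10.62 (mean 9.94 ± 2.04). The remaining probe set of Krt14 was not above background.

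Keratins of the upper layers were above background in 8 of 11 cases (72.7%, against 58.1% of all named genes). Krt4, the type II keratin of moist stratified linings, had 16.07, 15.27, 14.87 and 15.29 (mean 15.38 ± 0.50), highest in replicate 1 and lowest in replicate 3 by both of its probe sets. The brighter probe set, which gave these values, can match several transcripts, and the other had a mean of 14.44 ± 0.61. Krt13, the type I partner of Krt4, had 11.22, 10.69, 7.36 and 9.01 (mean 9.57 ± 1.75), so replicates 1 and 2 were high and replicate 3 fell short of its array's threshold. Krt13 therefore lay at -2.95 relative to the other samples in replicate 3, and its adjusted p of 0.0194 became 0.0687 without replicate 1 and 0.0889 without replicate 2. Its other 2 probe sets were not above background, though both were lowest in replicate 3, at 6.79 and 4.69.

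The epidermal keratins showed a split. Krt10, the type I keratin of differentiating epidermis, was nearly even at 9.91, 9.96, 9.98 and 9.62 (mean 9.87 ± 0.16). Krt1, its type II partner, had 8.84, 9.67, 7.72 and 9.02 (mean 8.81 ± 0.81), highest in replicate 2 and lowest in replicate 3. Krt2, a type II keratin of upper epidermis, had 8.004, 9.21, 6.55 and 8.81 and ran the same way, but was not above background at 8.15 ± 1.17 (adjusted p = 0.165). It passed without replicate 3 (adjusted p = 0.0102). Krt2, Krt1, Krt13 and Krt14 were lowest in replicate 3 with every scaling used.

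Among the other upper layer keratins Krt77, Krt78, Krt79 and Krt80 were above background, each with a range of at most 1.07 log2 units. Krt78, a type II keratin of stratified epithelia, had 10.26, 10.60, 10.69 and 9.62 (mean 10.29 ± 0.49). Krt80, a type II keratin found in many epithelia, had 9.81, 9.13, 9.32 and 9.53 (mean 9.45 ± 0.29). Krt79, another type II keratin, had 7.95, 8.92, 8.68 and 8.37 (mean 8.48 ± 0.42). All 3 were over the threshold in every sample. Krt77, a type II keratin of the epidermis and sweat ducts, was close to it at 7.66, 7.37, 8.37 and 8.32 (mean 7.93 ± 0.49, adjusted p = 0.0423), and lost its call when any 1 sample was left out (adjusted p from 0.0550 to 0.152). Krt24 and Krt76 were under the threshold in every sample.

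Among the 4 keratins of activated and wounded epithelium only Krt6a passed (25%, against 58.1% of all named genes). Krt6a, a type II keratin induced in stressed epithelium, had 10.58, 10.83, 8.28 and 8.26 (mean 9.49 ± 1.41), high in replicates 1 and 2 and low in replicates 3 and 4. Its second probe set, also above background, did not share that order, with 8.34, 7.75, 8.69 and 8.35, and its remaining probe set was not above background. Krt16, a type I partner of Krt6a, had 5.14, 7.10, 6.94 and 6.86 and passed its array's threshold in replicate 2 alone. Krt6b and Krt17 were under the threshold in every sample. Krt6a and Krt6b, and Krt14, Krt16 and Krt17, are close in sequence, so signal between them is uncertain, and 1 further probe set annotated to several keratins was left out.

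**Figure D3:**
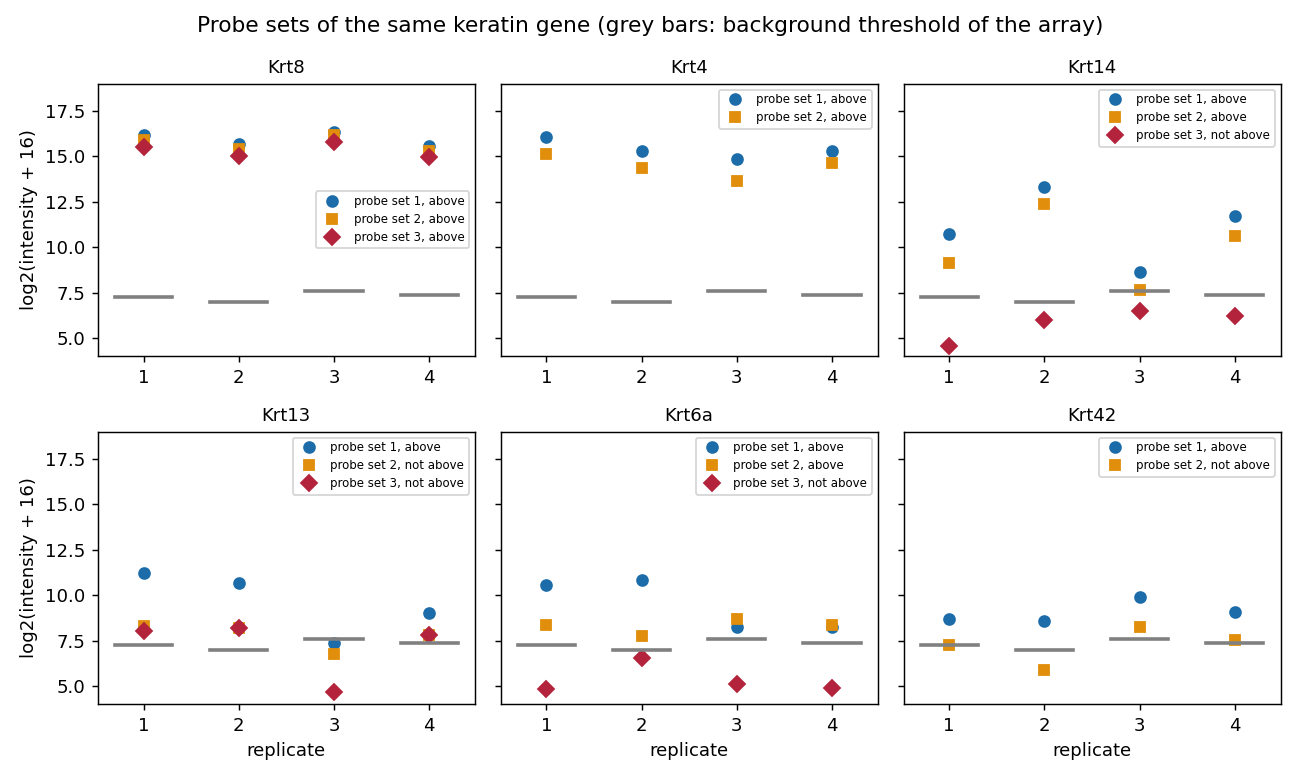
Levels, as log2(intensity + 16), of every probe set of 6 keratin genes in replicates 1 to 4, with grey bars at each array's background threshold and probe sets numbered from the brightest. The 3 probe sets of Krt8 run together and the upper 2 of Krt14 share 1 order of samples, while those of Krt6a part.

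Of the keratins outside these groups, 3 of 5 were above background (60%, against 58.1% of all named genes). All 3 were highest in replicate 3 as deposited. Krt23, a type I keratin of simple epithelia, had 8.75, 10.22, 11.12 and 10.70 (mean 10.20 ± 1.03), lowest in replicate 1. Krt42, a type I keratin, had 8.68, 8.57, 9.88 and 9.09 (mean 9.05 ± 0.60), but its other probe set, the one not prone to match several transcripts, was not above background at 7.24 ± 0.99. Krt88 had 7.93, 7.81, 8.32 and 7.83 (mean 7.97 ± 0.24, adjusted p = 0.0260). Its call was lost when any 1 sample was left out (adjusted p from 0.0542 to 0.0820), and its place in replicate 3 turned to -0.01 under quantile normalization. Krt12, the keratin of the cornea, and Krt222 were not above background.

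Few hair shaft keratins were above background. Of 12, 2 passed (16.7%, against 58.1% of all named genes). Without a test, 6 of the 12 were under the threshold in every sample, 3 were over it in all 4 and 3 in some. The last were Krt84, Krt86 and Krt83, over it in 3, 2 and 1 samples. Krt81, a type II hair keratin, had 8.88, 8.53, 9.76 and 9.37 (mean 9.13 ± 0.54, adjusted p = 0.000317). Krt32, a type I hair keratin, had 7.46, 7.77, 8.39 and 8.58 (mean 8.05 ± 0.52, adjusted p = 0.0304), and was not above background without replicate 2, 3 or 4 (adjusted p from 0.0665 to 0.123). Krt36 was over the threshold in every sample without passing the test (7.999 ± 0.52, adjusted p = 0.0800). Of 38 Krtap genes, which encode hair shaft matrix proteins, 1 was above background (2.63%, against 58.1% of all named genes). It was Krtap10-4 at 8.93 ± 0.50, named after its values were seen.

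In 4 keratins 1 sample stood apart from the other 3 by Dixon's ratio of gap to range (8.33%, against 6.85% of all named genes). None of them was above background, where the count was 0 of 21 (against 5.9% of all genes above background). The spread between samples was read for each keratin above background against probe sets of like level. Among the 21 genes 0 passed limma's spread test after adjustment, and 10 of all 18581 probe sets above background did (0.0538%). Krt20, with the largest SD of all keratins at 2.64, and Krt2 were not above background and so were not in these counts of 21. At an unadjusted p under 0.05 there were 4 keratin genes of 21, Krt14, Krt18, Krt13 and Krt6a, and limma's lowest adjusted p was 0.543. By probe set the count was 5 of 26 (19.2%), against 6.21% of all probe sets above background. A range of 2 log2 units or more was seen in 5 of the 21, namely these 4 and Krt23 (23.8%, against 9.59% of all genes above background). The median SD of the 21 keratins was 0.49, and that of all genes above background was 0.41.

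**Figure D4:**
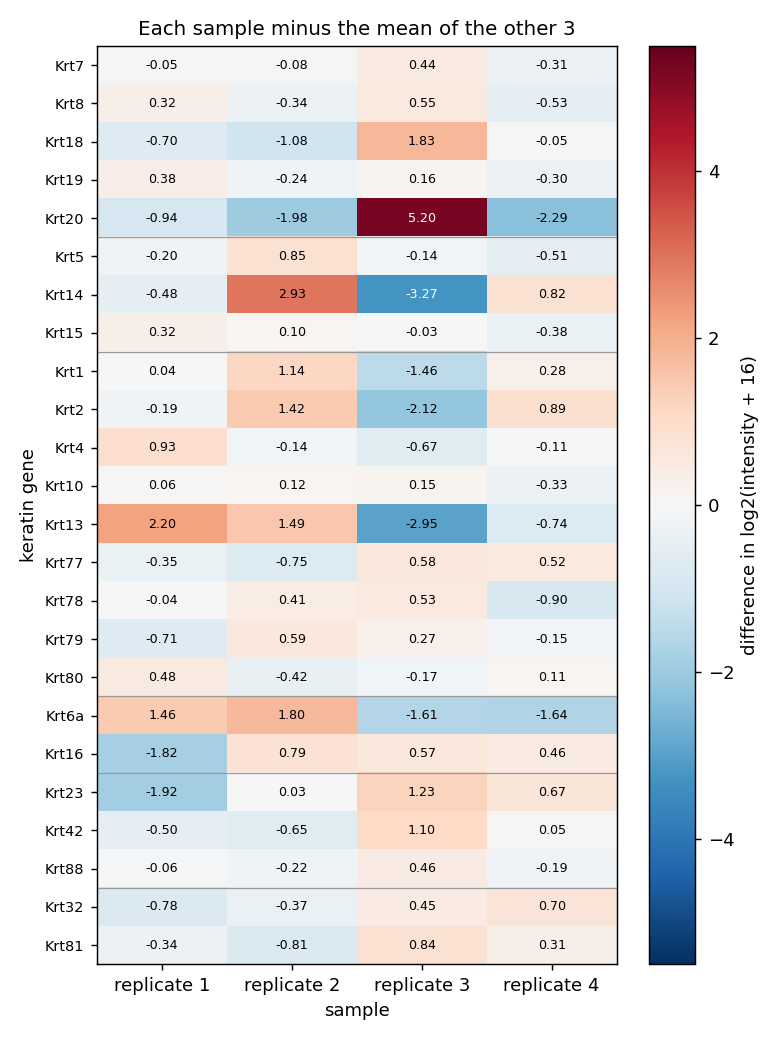
Difference of each sample from the mean of the other 3, in log2(intensity + 16), for the 24 keratins plotted by level, with red above and blue below. Replicate 3 holds both extremes, 5.20 for Krt20 and -3.27 for Krt14.

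Replicate 3 was the sample with the highest value for 10 of the 21 keratins above background (47.6%, against 27.7% of all genes above background) and with the lowest for 4 (19%, against 34.2%). Those 4 were Krt1, Krt4, Krt13 and Krt14. These counts depended on the scaling, since under quantile normalization replicate 3 was highest for 7 (33.3%, against 25.4%) and lowest for 7 (33.3%, against 38.8%). The subgroup medians of its differences from the other samples were 0.50 for 4 simple keratins, -0.14 for 3 basal keratins and -0.01 for 8 keratins of the upper layers. All 4 simple keratins were higher there as deposited. Under quantile normalization the medians became 0.25 for simple (with Krt19 lower), -0.37 for basal and -0.26 for upper layer keratins. Over all genes above background the median in replicate 3 as deposited was -0.04, with 47.6% higher. In replicate 2 all 3 basal keratins were higher than in the others, with a median of 0.85. Of the 4 simple keratins 0 were higher there. Over all genes above background 52.1% were higher in replicate 2, with a median of 0.02. The Gapdh and Actb ratios given above were also highest in replicate 2, and whether they bear on this was not tested.

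Other epithelial gene lists were mixed in replicate 3. It held the highest value for 4 of 4 uroplakin genes. For the 12 cornified envelope and skin genes it was highest in 5 and lowest in 3 (3 and 7 under quantile normalization), and for the 15 epithelial transcription factors it was highest in 3 and lowest in 7 (3 and 10). The genes named next were chosen after their values were seen. Upk3a, a uroplakin of umbrella cells, had 4.55, 6.38, 14.91 and 7.03, so like Krt20 it was over the threshold in replicate 3 alone. Ivl, involucrin of the cornified envelope, had 11.53, 12.66, 15.52 and 11.38, and Sprr1a, a small proline-rich envelope protein, had 11.92, 12.21, 15.63 and 11.67. Pparg, a nuclear receptor active in urothelium and fat, had 11.19, 10.66, 13.58 and 11.34. In each of these genes replicate 3 was the highest and the other 3 samples lay close together or well below. The general epithelial genes did not follow, since Epcam had 15.64, 15.57, 15.60 and 15.44 and Cdh1 had 15.37, 15.34, 14.94 and 15.41. Replicate 3 was also the sample with all 5 skeletal muscle genes over the threshold and the highest gland sum given above. Of the 5 male reproductive tract genes 1 was highest in replicate 3, Pbsn, with 9.10, 9.42, 15.41 and 8.80. Svs4, Svs5, Svs2 and Pate4 went the other way, highest in replicate 2 at 14.80, 14.61, 12.89 and 12.10. In replicate 3 those genes were at 6.55, 7.61, 7.31 and 5.53. All 6 liver genes were over the threshold in replicates 1 and 3. Whether these bear on Krt20, Krt18, Krt14 or Krt13 was not tested.

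The genes that anchor keratin filaments were all above background. Of 15 anchor and linker genes 15 passed (100%, against 58.1% of all named genes), with a median level of 12.99 and a median SD of 0.39. Dsp, desmoplakin, which ties keratins to desmosomes, had 15.88, 15.31, 15.81 and 14.99 (mean 15.50 ± 0.42). Ppl, periplakin, had 13.42, 13.39, 11.93 and 13.23 (mean 12.99 ± 0.72), lowest in replicate 3. Evpl, envoplakin, which works with periplakin in the cell envelope, had 11.37, 11.58, 11.17 and 11.42 (mean 11.39 ± 0.17) and was nearly even.

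The epithelial transcription factors were also all above background, in 15 of 15 cases (100%, against 58.1% of all named genes). Trp63, the p63 gene that maintains basal cells, had 14.86, 15.39, 14.85 and 14.79 (mean 14.97 ± 0.28). Like Krt5, it was highest in replicate 2. Klf5 had 12.14, 12.20, 12.87 and 13.28 (mean 12.62 ± 0.55), and Klf4, a factor of epithelial differentiation, had 14.71, 14.44, 13.42 and 14.16 (mean 14.18 ± 0.55). The medians of the 15 factors differed from the other samples by at most 0.25 log2 units in any sample.

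Other intermediate filament genes were above background in 7 of 16 cases (43.8%, against 58.1% of all named genes). Vim, the vimentin gene of mesenchymal cells, had 16.41, 15.95, 13.16 and 15.54 (mean 15.27 ± 1.45), lowest in replicate 3, where Krt18 was highest. Des, the desmin gene of muscle, had 8.42, 10.83, 10.66 and 8.96 (mean 9.72 ± 1.21). Nes did not pass, at 7.77 ± 0.69. The rest that passed were Synm, Sync and the lamins Lmna, Lmnb1 and Lmnb2, while the neurofilament genes Nefl, Nefm and Nefh did not. Of 12 cornified envelope and skin genes 5 passed (41.7%), namely Ivl, Lor, Tgm3, Sprr1a and Casp14. Flg, the filaggrin gene of epidermis, was under the threshold in every sample at 4.62 ± 0.38. Lor, the loricrin gene, had 9.93, 9.05, 7.64 and 9.21 (mean 8.96 ± 0.96), lowest in replicate 3 as were Krt1 and Krt2. Of 5 mesothelium genes, which mark another keratin-producing layer, 3 passed (60%, against 58.1% of all named genes). Wt1 and Lrrn4 were under the threshold in every sample, with means of 5.66 and 5.89. Msln had 12.29, 11.14, 7.31 and 13.60 and Upk3b had 11.73, 10.44, 14.34 and 11.47, so replicate 3 was lowest for the first and highest for the second.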

How the data were processed

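Per the labels' protocols, RNA of 4 ureter samples went through RNeasy extraction, 2 amplification rounds and biotin labelling. For every array the authors deposited linear intensity values by probe set. Per the submitters' processing notes GCOS was used (version: not given in the sources used here). After trimming 2% of probe sets at each end, array means were 1499.49 to 1499.84, so the arrays share a scale, and nothing further was applied. The 64 control probe sets were left out. Names came from the platform annotation: 34945 probe sets had 1 symbol, 932 several and 9160 none. Gene identifiers of all 48 keratins were found in the RefSeq table of GRCm38.p6, with 0 symbols changed.

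Levels are log2(intensity + 16), which compresses differences among dim probe sets, and levels of different probe sets were not set against each other. Each array's threshold was the 95th percentile of 87 chemosensory receptor probe sets, of which 0 were called. The mean over samples was tested with limma 3.58.1 in R 4.3.3 (one-sided, Benjamini-Hochberg over all probe sets). Spread was tested against limma's trended robust prior variance (F test, 3 and 5.45 degrees of freedom). Both were tested on simulated data. The number of arrays limits precision. Named were all keratins above background, those of the simple, basal, upper layer and activated groups over a threshold in any sample, and the first 3 measured genes of the anchor, filament and transcription factor lists; others were chosen after their values were seen. The keratins and the lists were chosen with earlier results of these data known. The smooth muscle list was added later. Alternatives were other pseudocounts, quantile normalization, other backgrounds, untested calls, other probe set rules, another prior and leaving out each sample.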

Additional observations from a re-analysis of the deposited data

Results flagged for a closer look

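In 4 keratin genes 1 sample lay far from the other 3, with a ratio of gap to range above Dixon's critical value. All 4 were not above background. They were Krt76 (0.926, replicate 4 high at 5.93), Krt16 (0.876, replicate 1 low at 5.14), Krt35 (0.862, replicate 3 high at 5.44) and Krt222 (0.836, replicate 2 low at 5.04). Chance flags about 1 in 20 groups, and among all named genes 6.85% had such a gap, against 8.33% of the keratins. Krt20, with a ratio of 0.820, lay just under the limit. Among the 21 keratins above background 0 had such a gap, against 5.9% of all genes above background.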

How the results depend on the processing

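The count of 21 keratins above background ran from 16 to 21 under the alternatives, and from 17 to 19 with 1 sample left out, except with the background set 3 median absolute deviations over the median, which left 8 genes and 11 probe sets. There Krt1 (-0.54), Krt32 (-1.31), Krt42 (-0.30), Krt77 (-1.43), Krt79 (-0.88), Krt81 (-0.22) and Krt88 (-1.38) lay below background in log2 units. With multi-transcript probe sets removed, Krt42 lay at -0.053. With 1 sample left out, 21 to 26 keratin probe sets passed. At the 99th percentile Krt1, Krt32, Krt77, Krt79 and Krt88 were lost, with the mean of all probe sets Krt6a and Krt13, and with a trended prior, added after seeing the data, Krt77 and Krt88. Krt7, Krt8 and Krt10 have multi-transcript probe sets alone and were then not measured.

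Quantile normalization moved the median of all probe sets by 0.17, 0.34, -0.39 and -0.12 in replicates 1 to 4, but by under 0.1 among those above background. Under it 16 of 96 differences of a named keratin from the other samples changed sign, the largest of them 0.46. The medians of replicate 4 became 0.026 for simple and 0.15 for basal keratins. With 1 sample left out, the basal median of replicate 1 ran from -0.28 to 0.39. The cause was not tested. The 37 of 46 anchor, filament and factor genes above background stayed within 1.5 times in all alternatives. The spread test passed 0 keratins in each alternative run. No paired analysis was possible because there is 1 group.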
